A study of Homo sapiens with 6 samples.

Results

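Transcripts of 10 genes of the transforming growth factor beta (TGF-beta) pathway were followed in T98G cells, an established glioblastoma (GBM) line, without and with CBX8. The genes were taken by symbol from the 57133 rows of the count table, and all 10 were present: the ligand genes TGFB1, TGFB2 and INHBA, the receptor genes TGFBR1, TGFBR2 and TGFBR3, the latent TGF-beta binding protein genes LTBP1 and LTBP2, and SKIL and TGFBI, which encode a regulator and a product of the signal. All 6 libraries come from the T98G CBX8 KO line, made with a guide RNA against CBX8 and Cas9 and selected with puromycin. The CBX8 KO libraries (n = 3) carry the empty TetOFUW vector and the WT CBX8 re-expression libraries (n = 3) the same vector with V5-tagged WT CBX8, both with the rtTA activator. Every library is labelled as treated with doxycycline (1 μg/ml, 72 h), so the inducer is shared and the construct differs. Sample titles and the methods describe re-expression in the KO line, whereas another label calls these libraries wild type. Each condition is 1 stably transduced line, and no sgControl cells were among the samples. Whether the 3 libraries of a condition came from separate cultures is not given in the sources used here, so each SD and p-value measures spread between libraries, which may be technical.

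CBX8 is a chromobox subunit of Polycomb repressive complex 1, which represses genes marked by trimethylated histone H3 lysine 27. TGF-beta ligands are secreted as inactive complexes held in the matrix by latent TGF-beta binding proteins and are freed by integrins and proteases. The active ligand brings together the type II receptor TGFBR2 and the type I receptor TGFBR1, whose kinase phosphorylates SMAD2 and SMAD3. With SMAD4 these enter the nucleus and switch on targets, among them their own inhibitors. In glioblastoma the pathway is known for its part in invasion, matrix production and immune suppression.

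Upon WT CBX8 re-expression, 1 of the 10 genes rose past the threshold and 0 fell. SKIL rose by 0.19 on the log2 scale (standard error, SE, 0.06), a 1.14-fold difference, and the 2 TGF-beta ligand genes, the 3 receptor genes, both LTBP genes and TGFBI did not pass. INHBA was too low to be tested. The threshold was an adjusted p under 0.05 from edgeR's quasi-likelihood test, adjusted by Benjamini-Hochberg over all 14461 genes tested. Over all these genes 12.9% passed it, with 6.23% higher and 6.63% lower, so 1 of 9 tested genes is near the background share. With library size as the only scaling, 1400 of all genes were higher and 592 lower, in place of 901 and 959. The median log2 fold change of the 9 tested genes was -0.0089, against 0.0049 over all genes tested. Positive log2 fold changes mean a higher level with WT CBX8 throughout.

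Total counts per library lay between 7950190 and 8659796. CBX8, the targeted gene, was counted 96, 104 and 83 times without the construct and 30372, 31408 and 27791 times with it, in the order of replicates 1 to 3, and transcripts of vector and endogenous gene are not separated. Of the glial and glioma markers examined, VIM, the most abundant, averaged 2775 CPM (counts scaled to the normalized library size) over the libraries. SOX2 and S100B had no count in any library, and NES averaged 0.21 CPM without and 0.39 CPM with WT CBX8. GFAP averaged 1.82 CPM without and 2.92 CPM with WT CBX8 (edgeR adjusted p = 0.131). OLIG2 averaged 1.78 CPM without and 3.22 CPM with WT CBX8, a log2 fold change of 0.85 (edgeR adjusted p = 0.0557). Of these 8 markers, SOX9 and CD44 were called, where 12.9% of all genes tested were called in either direction. Their log2 fold changes were -0.27 and -0.21 (edgeR adjusted p = 0.00386 and 0.00967), and their part in the results below was not tested. Summed levels of 4 immune markers lay between 1.39 and 3.07 CPM without and between 2.12 and 2.97 CPM with WT CBX8, with AIF1 at 0. Since 97.1% of the AIF1 transcript is matched on alternate contigs, where reads can be lost from counting, its 0 does not show that the gene is silent. Those of 4 endothelial markers lay between 0.26 and 0.48 CPM and between 0.11 and 0.35 CPM, with KDR at 0. The 4 epithelial markers, of which KRT8 made up most, summed to between 78.8 and 86.8 CPM in CBX8 KO and to between 93.9 and 99.1 CPM upon re-expression. KRT8 itself was called, with a log2 fold change of 0.23 (edgeR adjusted p = 0.00814), while EPCAM, CDH1 and KRT19 averaged at most 0.27 CPM in either condition. The 4 neuronal markers summed to between 13.5 and 14.6 CPM and to between 17.1 and 19.2 CPM. The epithelial and neuronal sums did not overlap between conditions, where 28.9% of all single genes tested did not overlap. The part of these sums in the results below was not tested.

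To compare levels between genes, CPM were divided by the length of the canonical transcript in kilobases (CPM per kb). In CBX8 KO the order from high to low was TGFBI, TGFB1, TGFB2, TGFBR2, SKIL, TGFBR1, LTBP1, TGFBR3, INHBA and LTBP2. TGFBI stood at 1143 ± 29.5 CPM per kb (SD, n = 3), TGFB1 at 70.8 ± 1.83 and TGFB2 at 41.9 ± 1.204. TGFBR2 followed at 21.0 ± 0.14 CPM per kb and SKIL at 8.96 ± 0.52. The lower part of the order held TGFBR1 at 2.65 ± 0.196 CPM per kb, LTBP1 at 2.12 ± 0.14 and TGFBR3 at 1.06 ± 0.06 (SD, n = 3 each). Neighbouring genes in this order did not overlap between the 3 libraries, except INHBA (0.17 ± 0.035) and LTBP2 (0.16 ± 0.041), which overlapped. Upon re-expression the order was the same for the 8 higher genes, and LTBP2 (0.23 ± 0.019) stood above INHBA (0.16 ± 0.073), again with overlapping libraries. The signalling receptor gene TGFBR1 was thus the scarcer of the receptor pair in every library, and LTBP1 and LTBP2 were below TGFB1 and TGFB2, whereas LTBP1 was above INHBA. In bulk libraries such as these, fewer cells with a transcript and less of it per cell cannot be told apart.

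**Figure D1:**
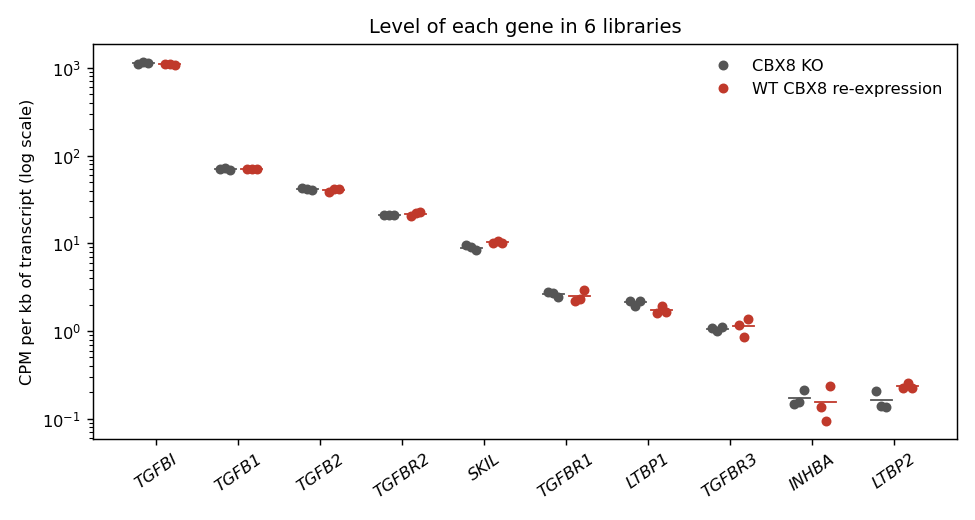
Level of each of the 10 genes in CPM per kb of canonical transcript (log axis), with 1 point per library, a short line at the mean of each condition, CBX8 KO in grey and WT CBX8 re-expression in red. Genes are ordered by their CBX8 KO mean, from TGFBI at 1143 to LTBP2 at 0.16 CPM per kb, and the conditions lie side by side within each gene.

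The ligand genes differed little between conditions. TGFB1 (ENSG00000105329.11, chromosome 19 from 41301587 to 41353922, hg38, minus strand), the founding TGF-beta, measured 197, 202 and 192 CPM in CBX8 KO replicates 1 to 3 and 196, 193 and 198 CPM upon re-expression. The conditions overlapped, and the log2 fold change was -0.0089 (SE 0.05, 95% interval -0.11 to 0.09, edgeR adjusted p = 0.94). Its direction turned with the scaling and with single libraries, so none is given, and it was -0.12 when GC content and length were corrected for (adjusted p = 0.086). TGFB2 (ENSG00000092969.12, chromosome 1 from 218345336 to 218444619, plus strand), the isoform that relies on the co-receptor TGFBR3, measured 253, 246 and 239 CPM in the CBX8 KO libraries and 223, 242 and 245 CPM in those with WT CBX8. The lowest library was a re-expression library but the conditions overlapped, and the log2 fold change was -0.05 (SE 0.05, 95% interval -0.16 to 0.05, edgeR adjusted p = 0.55), 0.00056 with library size as the only scaling. For both ligand genes the interval of the reported edgeR fit leaves room for a difference of at most 0.16 on the log2 scale. That interval does not include the shifts between settings. INHBA (ENSG00000122641.11, chromosome 7 from 41667168 to 41705834, minus strand), whose product forms activin A, was counted 7, 8 and 10 times in CBX8 KO and 7, 5 and 12 times upon re-expression. The lowest and the highest of these counts are both from re-expression libraries, and a difference was not detectable at this depth.

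A ratio of counts within a library can be compared between conditions, where scaling plays no part. It is not corrected for transcript length, and per kb TGFB1 stood above TGFB2 in both conditions. The ratio of TGFB2 to TGFB1 counts was 1.28, 1.22 and 1.25 in CBX8 KO and 1.14, 1.26 and 1.24 upon re-expression. The mean log2 ratio was lower by 0.05 with WT CBX8, a log2 difference of -0.05 with an exact permutation p of 0.50 (two-sided, n = 3 each), where 3 libraries against 3 cannot give less than 0.1. Exons of HNRNPUL1 overlap TGFB1 on the opposite strand, with 3436 to 3785 counts per library and a log2 fold change of -0.096 (edgeR adjusted p = 0.24). Exons of TGFB2-AS1 overlap TGFB2 on the opposite strand, with 33 to 58 counts per library. TGFB2-OT1 overlaps TGFB2 on the same strand, with 0 counts in every library, and how the counting treated reads shared by these genes is not known. INHBA, LTBP1 and LTBP2 also have an antisense gene over some of their exons. Since the strand setting of the counting is not known, reads in these overlaps could belong to either gene.

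Of the 3 receptor genes among the 10, TGFBR2 was the most abundant. TGFBR2 (ENSG00000163513.19, chromosome 3 from 30606601 to 30694142, plus strand), the kinase that binds ligand first, measured 94.7, 94.6 and 95.7 CPM in the CBX8 KO libraries and 93.1, 99.4 and 103 CPM in those with WT CBX8. Libraries with WT CBX8 held both the lowest and the highest value, and the log2 fold change was 0.05 (SE 0.06, 95% interval -0.06 to 0.16, edgeR adjusted p = 0.63). TGFBR1 (ENSG00000106799.14, chromosome 9 from 99104038 to 99154192, plus strand), the kinase that activates SMAD2 and SMAD3, was counted 143, 150 and 123 times in CBX8 KO and 123, 133 and 162 times upon re-expression. Its conditions overlapped, with a log2 fold change of -0.08 (SE 0.12, 95% interval -0.32 to 0.16, edgeR adjusted p = 0.74). TGFBR3 (ENSG00000069702.11, chromosome 1 from 91680343 to 91906335, minus strand), the co-receptor betaglycan, was counted 54, 53 and 55 times in CBX8 KO and 63, 48 and 74 times upon re-expression.

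The 3 CBX8 KO libraries of TGFBR3 were close together and the re-expression libraries lay on both sides of them. The log2 fold change was 0.10 (SE 0.18, 95% interval -0.26 to 0.46, edgeR adjusted p = 0.77), and without WT CBX8 re-expression replicate 3 it was -0.063. The ratio of TGFBR2 to TGFBR1 counts was 5.25, 5.31 and 6.08 in CBX8 KO and 6.44, 6.54 and 5.32 upon re-expression. These ratios overlapped between conditions, and their log2 difference of 0.14 had an exact permutation p of 0.20 (two-sided, n = 3 each).

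The LTBP genes lay on opposite sides of zero, and neither passed the threshold. LTBP1 (ENSG00000049323.16, chromosome 2 from 32946953 to 33399509, plus strand), whose product anchors latent TGF-beta in the matrix, was counted 114, 107 and 111 times in CBX8 KO and 89, 110 and 91 times upon re-expression. In CPM these were 14.4, 12.7 and 14.2 against 10.5, 12.6 and 10.8. Scaled to CPM, every library with WT CBX8 was below every library without it, by a narrow gap between CBX8 KO replicate 2 and WT CBX8 re-expression replicate 2, whereas the raw counts overlapped. The log2 fold change was -0.28 (SE 0.12, 95% interval -0.54 to -0.032, edgeR adjusted p = 0.14). The interval is for this gene alone, whereas the adjusted p allows for all genes tested. Over the alternative settings the adjusted p lay between 0.047 and 0.38, and the lowest, the only value under 0.05, came when GC content and transcript length were corrected for.

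LTBP2 (ENSG00000119681.12, chromosome 14 from 74498183 to 74612378, minus strand), a matrix protein of elastic fibres that does not bind latent TGF-beta, was among the scarcest of the 10 genes. It was counted 14, 10 and 9 times in CBX8 KO and 16, 19 and 16 times upon re-expression. Each library with WT CBX8 was above each without it, by 2 counts at the nearest, and the log2 fold change of 0.53 had a 95% interval from -0.14 to 1.21 (SE 0.33, edgeR adjusted p = 0.33). The ratio of LTBP2 to LTBP1 counts was 0.12, 0.093 and 0.081 in CBX8 KO and 0.18, 0.17 and 0.18 upon re-expression. Here the conditions did not overlap, with a log2 difference of 0.85 and an exact permutation p of 0.1 (two-sided, n = 3 each), the smallest that this design allows. Both the separation and this p follow from LTBP1 and LTBP2 being separated in CPM in opposite directions. The ratio therefore adds no evidence beyond that of the single genes. Levels of LTBP1, LTBP2 and SKIL did not overlap between conditions in CPM, 3 of the 9 tested genes, where 28.9% of all tested genes showed no overlap.

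**Figure D2:**
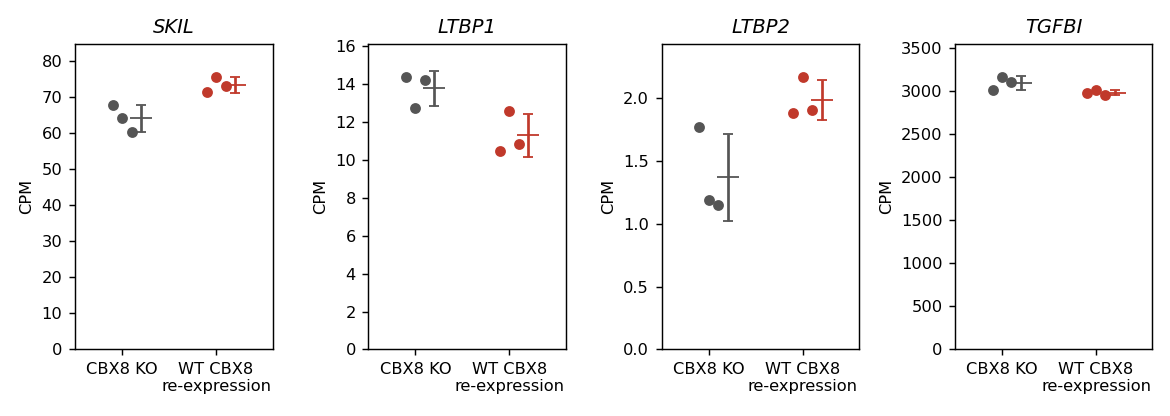
CPM of SKIL, LTBP1, LTBP2 and TGFBI in each library (points, axes from 0), with the mean and SD of each condition (n = 3) to the right of its points, CBX8 KO in grey and WT CBX8 re-expression in red. The conditions do not overlap for SKIL (60.3 to 67.8 against 71.3 to 75.6 CPM), LTBP1 and LTBP2, and they overlap for TGFBI.

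SKIL (ENSG00000136603.15, chromosome 3 from 170357342 to 170396835, plus strand) encodes SnoN, a co-repressor that binds SMADs at their targets, is degraded when the pathway is active and is itself a target of the pathway. It measured 67.8, 64.3 and 60.3 CPM in the CBX8 KO libraries and 71.3, 75.6 and 73.1 CPM in those with WT CBX8. All 3 libraries with WT CBX8 were above all 3 without it. The log2 fold change was 0.19 (95% interval 0.07 to 0.32, edgeR adjusted p = 0.037). Among the settings that lost the call were DESeq2 (adjusted p = 0.15), a threshold of FDR < 0.01 and no filter on low counts (0.084), and it was lost without CBX8 KO replicate 2 (0.12), CBX8 KO replicate 3 (0.15), and WT CBX8 re-expression replicates 1 (0.053), 2 (0.17) and 3 (0.079). It held without CBX8 KO replicate 1 (adjusted p = 0.026), and the log2 fold change was positive under all alternatives run, between 0.15 and 0.25.

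TGFBI (ENSG00000120708.17, chromosome 5 from 136028988 to 136063818, plus strand) encodes a secreted adhesion protein named for its induction by TGF-beta. It was counted 23877, 26695 and 24321 times in CBX8 KO and 25403, 26382 and 24830 times upon re-expression, which is 3014, 3172 and 3113 CPM against 2986, 3014 and 2956 CPM. At this depth counting error is small, and the conditions still overlapped, with the highest re-expression library level with the lowest CBX8 KO library. The log2 fold change was -0.05 (SE 0.05, 95% interval -0.16 to 0.05, edgeR adjusted p = 0.55) and 0.0012 with library size as the only scaling.

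**Figure D3:**
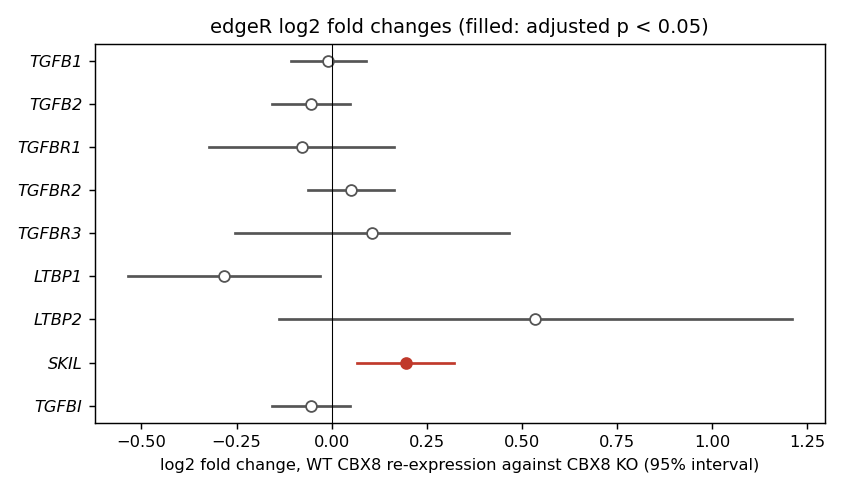
Log2 fold changes of the 9 tested genes from edgeR, WT CBX8 re-expression against CBX8 KO, with 95% intervals (not adjusted for the number of genes tested) as bars and a filled point for an adjusted p under 0.05. SKIL, at 0.19, is the only filled point, the intervals of TGFB1, TGFB2 and TGFBI are the narrowest, and that of LTBP2, with 9 to 19 counts per library, is the widest.

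Promoter sequence is shown for SKIL, the called gene, LTBP1, with the lowest log2 fold change, and TGFBI, with the highest level, from RefSeq (GRCh38.p14). All 10 genes matched the promoter table, and for each the 250 bases before the start nearest to the canonical transcript were searched on both strands. CAGAC, the short motif that contains the core bound by SMAD3 and SMAD4, was found in 4 of the 10 windows and in 38% of all 35114 windows of the same length. The palindrome GTCTAGAC was found in 0 of the 10 windows and in 0.18% of all windows, and TGANTCA, the AP-1 motif, in 0 of the 10 and in 6.57%. The window of SKIL lies within the first exon of another annotated SKIL transcript, so only the 30 bases around its motif are printed (chr3:170357596-170357625, plus strand). Windows of LTBP1 (chr2:32946703-32946952, plus strand) and TGFBI (chr5:136028738-136028987, plus strand) are printed whole, with capitals marking CAGAC on either strand (it reads GTCTG where it lies on the minus strand).
SKIL: gacggcggcggcGTCTGcgggaagctgtgt
LTBP1: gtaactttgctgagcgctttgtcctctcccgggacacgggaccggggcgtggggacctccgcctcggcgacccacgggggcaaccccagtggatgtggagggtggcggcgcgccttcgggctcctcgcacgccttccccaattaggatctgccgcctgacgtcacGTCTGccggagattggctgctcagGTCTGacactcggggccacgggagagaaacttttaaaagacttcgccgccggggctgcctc
TGFBI: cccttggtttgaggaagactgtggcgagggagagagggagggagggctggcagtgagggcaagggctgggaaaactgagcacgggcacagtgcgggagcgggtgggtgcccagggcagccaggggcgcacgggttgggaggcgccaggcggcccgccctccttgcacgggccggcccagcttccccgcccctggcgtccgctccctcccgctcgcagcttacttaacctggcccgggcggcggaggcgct

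The SKIL window held 1 match, the LTBP1 window 2 and the TGFBI window 0, and the other matches were in TGFB2 (2) and TGFBR1 (1). CpG dinucleotides, which are dense in the islands that Polycomb complexes occupy, numbered 42 in the SKIL window, more than in 98.6% of all windows. They numbered 35 in the window of TGFBR1, 28 in that of TGFBR3 and 24 in that of LTBP1. The INHBA window held 1 CpG, fewer than any other of the 10, and the median over all windows was 11. Of the 10 windows, 8 were above that median. Exon bases of the same gene made up all 250 of the SKIL window, 141 of that of LTBP2 and 76 of that of TGFBR1. A match describes these letters only, and no binding was measured in these libraries.

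**Figure D4:**
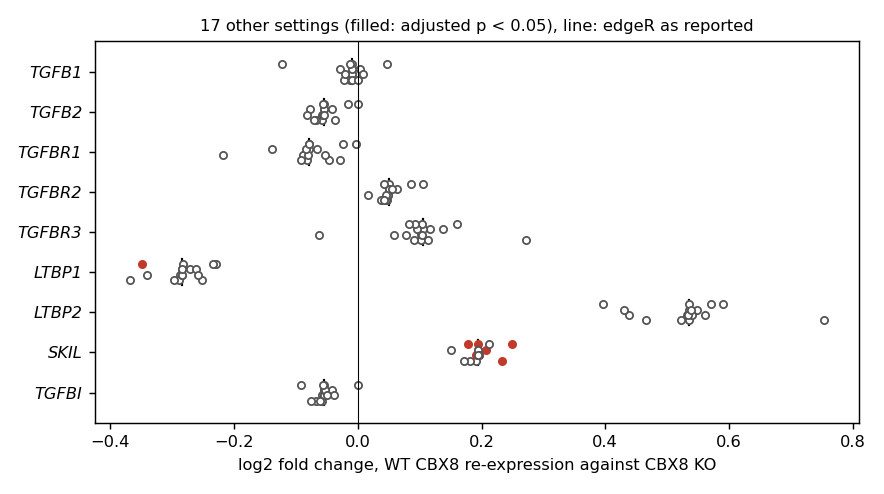
Log2 fold changes of the 9 tested genes under 17 other settings (points, filled for an adjusted p under 0.05), beside the value reported (vertical line). SKIL is filled in 9 of 17 settings and always above 0, LTBP1 is filled in 1, and TGFB1 has points on both sides of 0.

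The wider pathway was examined with 5 gene lists, to be read against the 6.23% of all genes tested that were called higher and the 6.63% called lower. These lists were chosen with earlier results of these data known, so their shares describe the listed genes only. Of 10 other ligand genes (TGFB3, inhibin subunits, growth differentiation factors, NODAL and LEFTY genes) 4 were tested and 0 passed, with a median log2 fold change of 0.31. TGFB3, named after its values were seen, had at most 12 counts in a library and a log2 fold change of 0.41 (edgeR adjusted p = 0.56). Of 8 other receptor genes 7 were tested, 1 fell and 1 rose (6.63% and 6.23% over all genes tested), with a median log2 fold change of 0.03. BAMBI, a receptor without a kinase that dampens signalling, fell from 140 ± 8.57 CPM (SD, n = 3) to 104 ± 5.49 CPM (SD, n = 3), a log2 fold change of -0.43 (SE 0.06, edgeR adjusted p = 4.83e-06). The co-receptor endoglin, ENG, rose by 0.15 (edgeR adjusted p = 0.048), and lost its call without CBX8 KO replicates 1 or 2 or WT CBX8 re-expression replicates 1 or 3, with adjusted p up to 0.196. ENG was called in 7 of 17 alternative settings. Its call was also lost with RLE scaling (edgeR adjusted p = 0.054) and with DESeq2 (adjusted p = 0.089). Corrected for GC content and length, ENG had a log2 fold change of 0.045 (adjusted p = 0.57).

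FBN1, FBN2 and FST rose among genes for latency, activation and trapping of ligands. Of 17 genes 11 were tested, 3 rose and 0 fell (6.23% and 6.63% over all genes tested), with a median log2 fold change of 0.15. Without CBX8 KO replicate 3, 5 rose and 1 fell, and with library size as the only scaling 6 rose and 0 fell. Corrected for GC content and length, 3 rose and 2 fell. FBN1, a fibrillin of the microfibrils to which LTBPs attach, had 486, 461 and 479 counts in CBX8 KO and 726, 827 and 736 counts upon re-expression, a log2 fold change of 0.59 (edgeR adjusted p = 1.56e-07). FBN2, the other fibrillin gene, rose by 0.44 (edgeR adjusted p = 0.00035). FST, whose product follistatin traps activins, rose most on this list, from 161, 187 and 210 counts to 356, 375 and 330 counts, a log2 fold change of 0.84 (SE 0.097, edgeR adjusted p = 6.09e-07). FBN1, FBN2 and FST, named because they were called, did not overlap between conditions. Over all tested genes 28.9% did not overlap, 14.4% being higher with WT CBX8. The calls of FBN1, FBN2 and FST held in all 17 alternative settings. THBS1, an activator of latent TGF-beta, and ITGB8, an integrin subunit that frees it, were named after their values were seen. THBS1 was abundant and did not pass the threshold (log2 fold change -0.11, edgeR adjusted p = 0.22), except when GC content and length were corrected for (0.032). ITGB8 had few counts and a log2 fold change of -0.66 (edgeR adjusted p = 0.063, 0.023 without CBX8 KO replicate 3), and it also passed with that correction.

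Among 18 SMAD genes and regulators, all tested, 3 fell and 1 rose (6.63% and 6.23% over all genes tested), each by under 0.25, and the median log2 fold change was -0.02. USP15, a deubiquitinase of the receptor complex, fell by 0.24 (edgeR adjusted p = 0.013). FKBP1A, which holds TGFBR1 inactive, fell by 0.15 (adjusted p = 0.036), and the ubiquitin ligase gene SMURF2 by 0.17 (adjusted p = 0.037). SKI, the close relative of SKIL, rose by 0.17 (adjusted p = 0.045). These 4 calls depended on single libraries: SKI lost its call in each of the 6 fits without 1 library (adjusted p 0.054 to 0.16), FKBP1A in all but the fit without CBX8 KO replicate 3 (up to 0.14), SMURF2 without CBX8 KO replicates 1 or 2 or WT CBX8 re-expression replicates 1 or 2 (up to 0.18), and USP15 without CBX8 KO replicate 2 or WT CBX8 re-expression replicates 2 or 3 (up to 0.069). They also depended on the test and the scaling. DESeq2 lost the calls of SKI (adjusted p = 0.16), SMURF2 (0.092) and USP15 (0.053). With upper quartile scaling edgeR lost those of FKBP1A (adjusted p = 0.054) and SMURF2 (0.055). With library size as the only scaling, 0 of the 18 fell and 4 rose, and SKI had a log2 fold change of 0.030 (adjusted p = 0.76) when GC content and length were corrected for. SMAD3 and SMAD7, named after their values were seen, had log2 fold changes of 0.10 (edgeR adjusted p = 0.17) and 0.22 (edgeR adjusted p = 0.21).

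Of 26 genes known to respond to TGF-beta, 24 were tested, 8 rose and 6 fell, against 6.23% and 6.63% of all genes tested, and the median log2 fold change was 0.11. Since this list was chosen with earlier results known, an excess of called response genes cannot be read from these shares and was not tested. With library size as the only scaling 12 rose and 3 fell. CDKN1A, the cell cycle inhibitor p21, went from 14.9 ± 1.42 up to 27.9 ± 0.28 CPM (SD, n = 3 each), with a log2 difference of 0.90 (edgeR adjusted p = 3.59e-07). COL1A1, a chain of type I collagen, rose by 0.98 (adjusted p = 3.01e-06) and CTGF, a matricellular growth factor, by 0.59 (adjusted p = 2.17e-05). In the other direction, LOX, which cross-links collagen, went from 133 ± 5.21 down to 91.7 ± 2.45 CPM (SD, n = 3 each), with a log2 difference of -0.54 (edgeR adjusted p = 4.43e-08). IGFBP3 fell by 0.51 (adjusted p = 5.65e-08) and SNAI2, a transcription factor of the mesenchymal state, by 0.45 (adjusted p = 2.47e-05). These 6 genes, those with the smallest adjusted p on the list, kept their calls in all 17 alternative settings.

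Other response genes, named after their values were seen, did not share a direction. PMEPA1, a feedback inhibitor, fell by 0.21 (edgeR adjusted p = 0.012), a call kept in 15 of 17 alternative settings. It was lost without WT CBX8 re-expression replicate 2 (0.090) and with library size as the only scaling. The contractile genes ACTA2 and TAGLN rose by 1.41 and 1.04 (adjusted p = 0.0029 and 0.0013) from low counts of at most 11 and 30 per CBX8 KO library. Exons of other genes overlap ACTA2 and TAGLN on both strands, so their counts are uncertain. COL1A1, CTGF, CDKN1A, LOX, SNAI2, FBN2, ENG, SMURF2, PMEPA1, FKBP1A, USP15, TGFB3, THBS1, ITGB8 and SMAD3 also share exon bases with another annotated gene, mostly on the opposite strand.

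**Figure D5:**
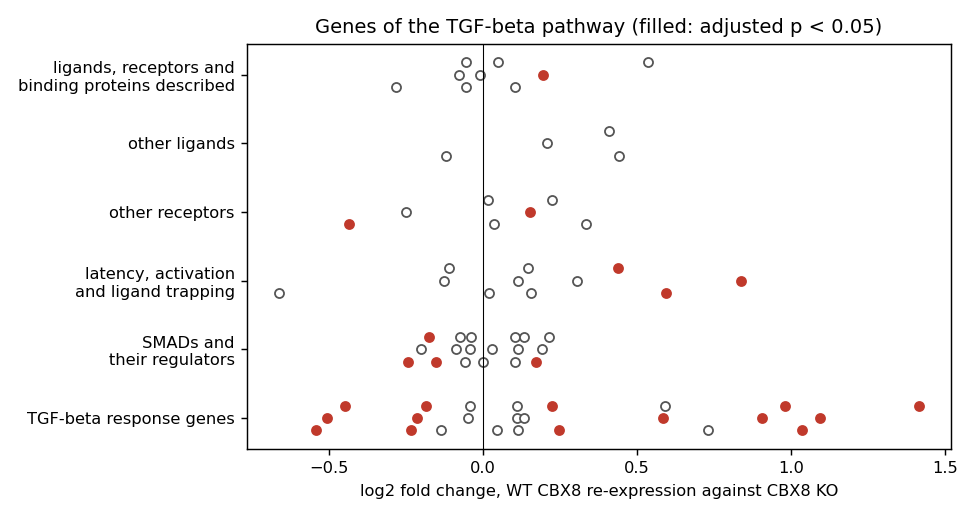
Log2 fold changes of the tested genes of the 10 described (top row) and of the 5 other pathway lists, WT CBX8 re-expression against CBX8 KO, filled for an adjusted p under 0.05. The response genes spread from -0.54 to 1.41 with filled points on both sides, whereas the top row has 1 filled point.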

How the data were processed

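RNA from 6 libraries was made into poly(A)-selected, 100 bp paired-end libraries. The authors trimmed reads with Trimmomatic, used HiSat2 on Galaxy for alignment to hg38 and deposited raw counts per gene symbol. The program used for counting, the annotation and the strand setting are not given in the sources used here. Precision from depth covers counting error only.

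In R 4.3.3, the 14461 genes kept by filterByExpr were normalized by TMM and tested with edgeR 4.0.16 (glmQLFit and glmQLFTest at defaults, condition as the only term) at an adjusted p under 0.05. CPM use TMM-adjusted library sizes. Standard errors are the absolute log2 fold change over the root of the F statistic, and 95% intervals use them with the test's degrees of freedom. These intervals are for single genes and are not adjusted for the number of genes tested. The fit was tested on simulated data. Named genes are the 10 genes, CBX8, and from each pathway list every called gene or, above 6, the 6 with the smallest adjusted p, and others are marked. The results of some listed genes are not reported here. Members and lists were chosen with earlier results of these data known. Alternatives were other scalings, tests (DESeq2 1.42.0, limma 3.58.1), filters and thresholds, a replicate block, each library left out, and, chosen after seeing the data, a GC and length correction. Lengths, coordinates and exon overlaps are from GENCODE release 44, in which the 10 symbols all matched.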

Additional observations from a re-analysis of the deposited data

How the results depend on the processing

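Of 153 fits of the 9 tested genes under other settings, 137 kept their direction and their side of the threshold, 8 were weaker, 1 stronger and 7 reversed, and for those that changed the cause was not tested. SKIL, the 1 gene that rose, was not called (0 genes higher) with DESeq2 (log2 fold change 0.191, adjusted p = 0.147), with no filter beyond 1 count (0.181, 0.0835), with the replicate block (0.195, 0.0697) or at FDR < 0.01. With 1 library left out its value ranged from 0.15 to 0.23, with 0 to 1 genes higher. LTBP1 was called lower (1 gene) once GC content and length were corrected for (-0.349, adjusted p = 0.0474). The reversals were of values near zero: TGFB1 was 0.0037 with upper quartile scaling and 0.047 with library size only, TGFB2 and TGFBI were 0.00056 and 0.0012 with library size only, and with 1 library left out TGFB1 ranged from -0.029 to 0.0084 and TGFBR3 from -0.063 to 0.27. Over all genes, 959 were lower and 901 higher. These became 592 and 1400 with library size only, which moved the median log2 fold change of all genes to 0.060, and 569 and 489 at FDR < 0.01. DESeq2 gave 502 higher, the GC and length correction 1449 lower, and the fits without 1 library 635 to 851 lower and 593 to 792 higher. The log2 difference in the LTBP2 to LTBP1 ratio lay between 0.72 and 1.02 with 1 library left out, that of TGFBR2 to TGFBR1 between 0.08 and 0.23, and that of TGFB2 to TGFB1 between -0.074 and -0.0038. Libraries with the same number did not deviate together (correlations -0.144, -0.182 and -0.115 over 10353 genes), and 0 of 6 correlated best with their own number, so the block is only a number shared; it gave 766 lower and 739 higher over all genes. Depth limits INHBA, LTBP2 and TGFBR3 most.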

Other observations

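Some components of the pathway left little or no transcript in these cells. NRROS, the latent TGF-beta carrier of myeloid cells, DCN, a proteoglycan that traps the ligand, LEFTY2 and NOX4 had no count in any of the 6 libraries. ITGB6, the epithelial integrin subunit that frees latent TGF-beta, averaged 0.17 CPM without and 0.12 CPM with WT CBX8, and LRRC32, the carrier of regulatory T cells, averaged 0.085 and 0.038 CPM. LTBP3 was the most abundant LTBP gene, with 151 CPM without and 153 CPM with WT CBX8, and its log2 fold change of 0.02 (SE 0.06) did not pass (edgeR adjusted p = 0.88). These genes were named after their values were seen.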
